A study of Mus musculus with 144 samples.

Results

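Cells labelled aNSC, the usual short name for active neural stem cells, were compared between 7-week and 5-week mice, using every single-cell library of that stage whose title starts with A2 (16 cells, 7 weeks) or A3 (32 cells, 5 weeks). These 48 cells are part of 144 libraries in the series, of which 131 were single cells. Some of the single cells carry the label filtered out in place of a stage and were not used. All of those are marked 5-week, and among A2 and A3 titles they occur only in A3_1. Per the labels and the series' design text, the cells came from the mouse subventricular zone and were sorted by flow cytometry for expression of the nuclear receptor Tlx. The transcript of Tlx itself was not seen in every cell, as given below. The groups carry no treatment in the labels, which name no strain, sex or animal and do not say how the stage was assigned. The title of each library names a set, and the cells fall into 3 sets per age, with 7, 5 and 4 cells in sets 1, 2 and 3 of 7 weeks and 8, 13 and 11 cells in sets 1, 2 and 3 of 5 weeks. Age goes with the title series throughout, so age and anything else that differed between A2 and A3 cannot be told apart. The values are TPM (transcript abundances scaled to a common total), used as log2(TPM + 1), and the mean over the cells of a set was the unit of comparison. Nothing in the labels says that sets are separate mice, so p-values weigh the age difference against the spread between sets, which may be technical. For some markers that spread followed the set number at both ages, as given below.

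The subventricular zone lines the lateral ventricle and is the main site of neurogenesis in the adult rodent forebrain. Its stem cells lie quiescent as astrocyte-like cells, and on activation they raise ribosome and protein synthesis, enter the cell cycle and give rise to transit-amplifying progenitors and then to neuroblasts that migrate to the olfactory bulb. Tlx, encoded by Nr2e1, keeps these stem cells self-renewing. Egfr marks activated stem cells and progenitors, Mki67 is made in cycling cells, and Dcx and Cd24a mark neuroblasts.

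A TPM table gives library complexity only as the number of genes seen, here at 1 TPM or more, which ran from 1984 to 3482 (median 2631.5) in the 7-week cells and from 1635 to 3842 (median 2764) in the 5-week cells. Set medians were 2770, 2416 and 2402 genes at 7 weeks and 3027, 2794 and 2505 at 5 weeks, and they overlapped. Their means differed by −246 genes (exact permutation test over sets, two-sided, p = 0.2, n = 3 sets per age), where the smallest p this design allows is 0.1. Mitochondrially encoded transcripts took a median of 6.34, 7.36 and 8.70% of the TPM in the 7-week sets and 5.68, 5.77 and 5.25% in the 5-week sets, and these medians did not overlap. An alternative given at the end rescaled the TPM without these and ribosomal RNA. Any other part of them in the gene differences below was not tested. Column sums ran from 988487 to 999999 TPM at 7 weeks and from 885837 to 999997 at 5 weeks. Y-linked transcripts were seen in 5 and 12 cells of 7 and 5 weeks, Xist in 2 and 8, and no cell had both. In set 3 of 7 weeks none of the 4 cells had either.

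The label aNSC was first checked against markers. Nr2e1 (ENSMUSG00000019803) was seen at 1 TPM or more in 8 of 16 cells at 7 weeks (50%, exact 95% interval 24.7 to 75.3) and 16 of 32 at 5 weeks (50%, 31.9 to 68.1). Egfr was seen in 6 of 16 (37.5%, 15.2 to 64.6) and 7 of 32 (21.9%, 9.28 to 40.0). These intervals cover counting error only. Ccnd2, a cyclin of cycling progenitors, was seen in 15 of 16 and 32 of 32 cells. Gfap, the intermediate filament of astrocytes and quiescent stem cells, was seen in 0 of 16 and 0 of 32, which allows shares of up to 18.8% and 9.38%, but it was also near 0 in qNSC of 7 weeks (set means 0.00, 0.00 and 0.04), so it does not part the stages there. Other astroglial transcripts were seen in many aNSC, Slc1a3 in 11 of 16 and 22 of 32, Aldoc in 8 of 16 and 21 of 32, and Clu in 9 of 16 and 23 of 32. Most of the Aldoc and Clu values were low. Among cells with them, medians were 2.25 and 3.19 TPM for Aldoc and 1.65 and 4.26 TPM for Clu. On the log2(TPM + 1) scale, set means of Aldoc ran from 0.77 to 2.86 in aNSC and from 7.68 to 12.2 in qNSC. Those of Clu ran from 0.99 to 3.78 in aNSC and from 7.87 to 10.84 in qNSC. Most cells of set 3 went against the label, since they had neuroblast transcripts without Nr2e1. Of the 4 cells of set 3 at 7 weeks, 4 had Dcx or Cd24a and none had Nr2e1 or gfp. At 5 weeks 7 of 11 had that combination, 3 had both kinds of transcript and 1 had Nr2e1 or gfp without Dcx or Cd24a. The gfp row is one whose source the labels do not describe. In set 1, 0 of 7 and 0 of 8 cells had Dcx or Cd24a without Nr2e1 or gfp.

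The order of the sets was alike at both ages for these markers. Set means of Nr2e1 were 5.58, 4.83 and 0.15 in sets 1, 2 and 3 of 7 weeks and 6.66, 4.06 and 0.63 at 5 weeks, on the log2(TPM + 1) scale used for all levels below. The gfp row stood at 5.00, 3.58 and 0.25 and at 5.07, 3.40 and 1.52. Both were highest in set 1 and lowest in set 3 at both ages. Slc1a3, a glial glutamate transporter, was at 7.09, 5.16 and 2.83 and at 7.92, 3.69 and 1.96. Apoe, a lipid carrier of astroglia, was at 5.84, 1.24 and 1.55 and at 6.34, 1.22 and 1.29. Dcx, a microtubule-associated protein of migrating neuroblasts, was at 0.54, 1.34 and 6.11 and at 0.07, 3.92 and 6.06. Cd24a, a surface glycoprotein, was at 1.09, 3.74 and 8.04 and at 2.23, 3.57 and 7.47, and the neuronal tubulin Tubb3 at 5.59, 8.25 and 10.58 and at 2.22, 8.47 and 9.49. These neuroblast genes were highest in set 3 at both ages. The ages differed little beside this spread, by −0.27 for Nr2e1 (95% interval −4.19 to 3.66), −0.69 for Dcx (−4.66 to 3.29) and −0.13 for Cd24a (−4.24 to 3.97). These intervals count the spread between set numbers as error, though its order was alike at both ages. Such wide intervals do not show that the ages were alike.

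**Figure D1:**
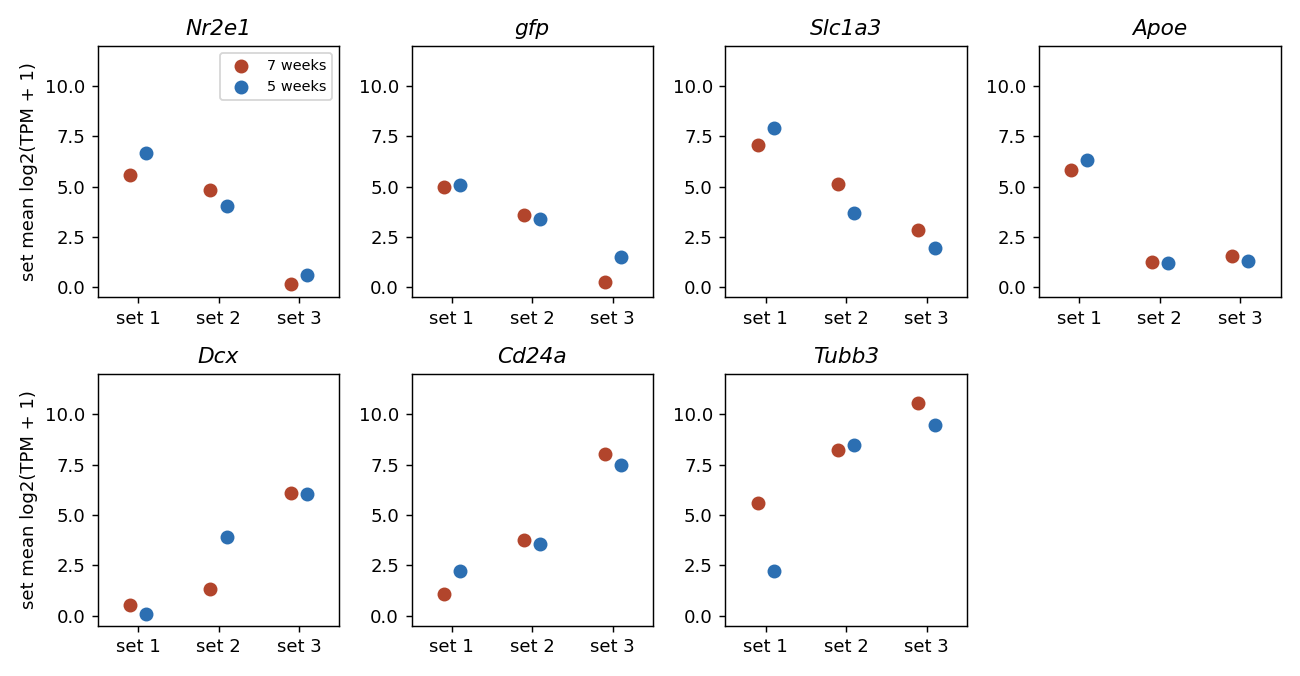
Set means of log2(TPM + 1) (y axis) for 7 marker genes in the sets numbered 1, 2 and 3 (x axis), 7-week aNSC in red and 5-week aNSC in blue, each point the mean over the cells of 1 set. At both ages Nr2e1 and gfp are highest in set 1, and Dcx, Cd24a and Tubb3 are highest in set 3.

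The sets also took unequal shares of the cells. Set 1 gave 43.8% of the 7-week cells and 25% of the 5-week cells, and set 3 gave 25% and 34.4%. A share over all cells of an age therefore weights the sets differently at the 2 ages. In the bulk pools of 500 cells from the same sets, Nr2e1, gfp, Dcx, Cd24a and Tubb3 had the same order of sets as in the cells, and Slc1a3 did not. Nr2e1 in pools was at 7.10 and 6.05 in sets 2 and 3 of 7 weeks, which had 1 pool each, and at 8.84, 7.81 and 6.35 in sets 1, 2 and 3 of 5 weeks, with 3 pools each. Dcx in pools was at 5.81 and 7.28 and at 4.06, 6.71 and 7.96. Slc1a3 in pools was at 9.31 and 10.39 and at 10.49, 10.04 and 10.47. In a pool, fewer cells of a type and less RNA per cell cannot be told apart. Every pool, 2 of 7 weeks and 9 of 5 weeks, held Xist and Y-linked transcripts together, so a pooled set was drawn from more than 1 animal.

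The comparison of ages asked which transcripts differ between 5 and 7 weeks in the cells labelled aNSC, with those of set 3 included as labelled. No gene passed. Of 4573 genes with a mean level of at least 1, 0 were called (limma, Benjamini-Hochberg adjusted p below 0.05), which is 0.0% of those tested, and the smallest adjusted p was 0.998. At an unadjusted p below 0.05 there were 197 genes (4.31%), 91 higher and 106 lower at 7 weeks. The 3 set means of 7 weeks all lay above those of 5 weeks for 217 genes (4.75%) and all below for 213 genes (4.66%). Genes of this kind are called separated here, and the word carries no test. Over the tested genes the median difference was 0.005. The median standard error was 0.88 and the median 95% interval reached 1.99 to either side, so a difference of about 2 on this scale was within the interval of a typical gene. A set mean covers cells with and without a transcript, so a unit on it is not a plain doubling of level. For 628 genes (13.7%) the whole interval lay between −2 and 2.

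**Figure D2:**
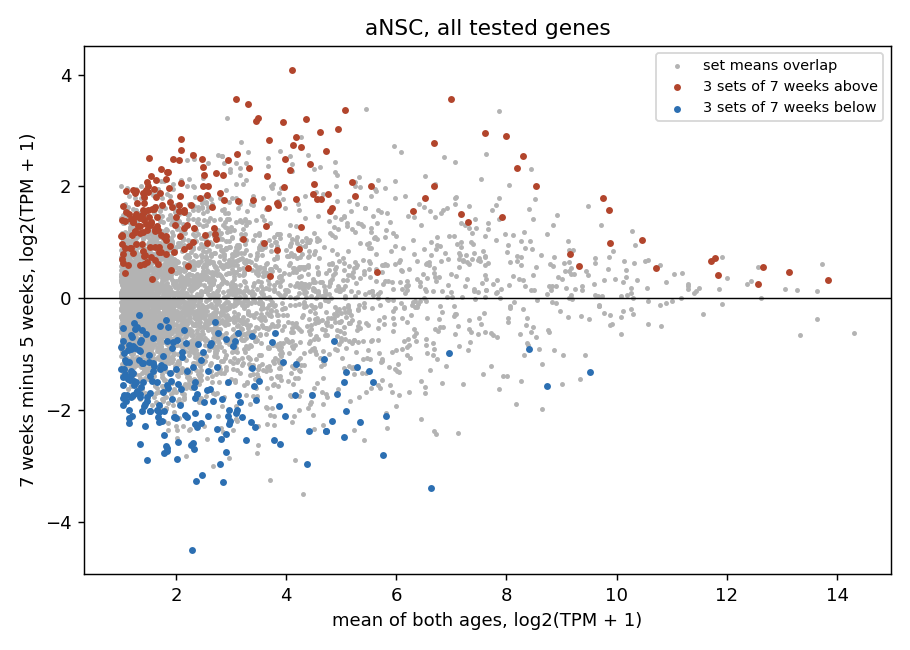
Difference between ages (7 weeks minus 5 weeks, log2(TPM + 1), y axis) against the mean of both ages (x axis) for the 4573 tested genes, 1 point per gene. Red marks the 217 genes with all 3 sets of 7 weeks above and blue the 213 with all 3 below, and the widest differences are found below a mean of 8.

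The 10 separated genes with the largest difference in each direction show what the spread looks like in single cells, and since they were picked for their size, their differences and intervals are a description. Those higher at 7 weeks had differences from 3.03 to 4.08. Eif2s1 (ENSMUSG00000021116), the alpha subunit of the initiation factor that brings the initiator tRNA to the ribosome, had set means of 6.83, 7.98 and 3.66 at 7 weeks and 2.25, 3.05 and 0.92 at 5 weeks. The lowest 7-week set lay above the highest 5-week set, by less than the spread within either age. The difference was 4.08 (SE 1.15, 95% interval 1.48 to 6.68, limma adjusted p = 0.998). It was seen in 13 of 16 cells at 7 weeks (81.2%, 54.4 to 96.0) and 12 of 32 at 5 weeks (37.5%, 21.1 to 56.3), and the mean of the set shares was 78.6% and 36.5%. Among cells with it, the median was 287 TPM at 7 weeks and 145 TPM at 5 weeks. Eif3i, a subunit of the scaffold factor eIF3, had set means of 7.14, 4.33 and 5.10 against 3.77, 0.21 and 3.11.

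Of the signal peptidase complex, which trims proteins as they enter the endoplasmic reticulum, the catalytic subunit Sec11a had set means of 6.47, 6.89 and 6.92 at 7 weeks and 4.29, 4.21 and 1.67 at 5 weeks. The 7-week sets lay close together and over 2 units above the highest 5-week set. The difference was 3.37 (SE 0.87), with the transcript in 14 of 16 cells (87.5%, 61.7 to 98.4) and 18 of 32 (56.2%, 37.7 to 73.6). The accessory subunit Spcs2 had set means of 4.91, 7.06 and 5.95 against 2.89, 1.56 and 3.83. Its cells with the transcript were 11 of 16 and 18 of 32, with a median of 302 TPM and 11.2 TPM among them. Here the level within cells differed more than the share of cells.

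Mapre2, a microtubule plus-end binding protein, had set means of 4.56, 4.99 and 5.56 against 1.35, 1.73 and 2.51, with the smallest standard error of these 10 (difference 3.17, SE 0.72). Trnt1, which adds the CCA end to tRNAs, had 6.76, 4.04 and 4.49 against 1.01, 2.82 and 1.77. Polr2d, a subunit of RNA polymerase II, had 5.34, 5.91 and 8.10 against 3.80, 3.47 and 2.98. None of these sets overlapped between ages, by which the genes were chosen. G6pc3, a ubiquitous glucose-6-phosphatase, had 6.40, 3.92 and 4.30 against 2.24, 1.58 and 0.12, and it was seen in 9 of 16 and 7 of 32 cells. Dnajc15, a mitochondrial J-domain protein, had 6.24, 3.78 and 5.08 against 1.54, 2.28 and 0.87. Rps13-ps2 is named as a pseudogene of a ribosomal protein gene, and its reads cannot be parted with certainty from those of Rps13. It had 9.23, 10.12 and 6.99 against 4.17, 5.40 and 6.05, while Rps13 itself had 2.21, 3.15 and 2.38 against 2.04, 1.67 and 1.38.

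**Figure D3:**
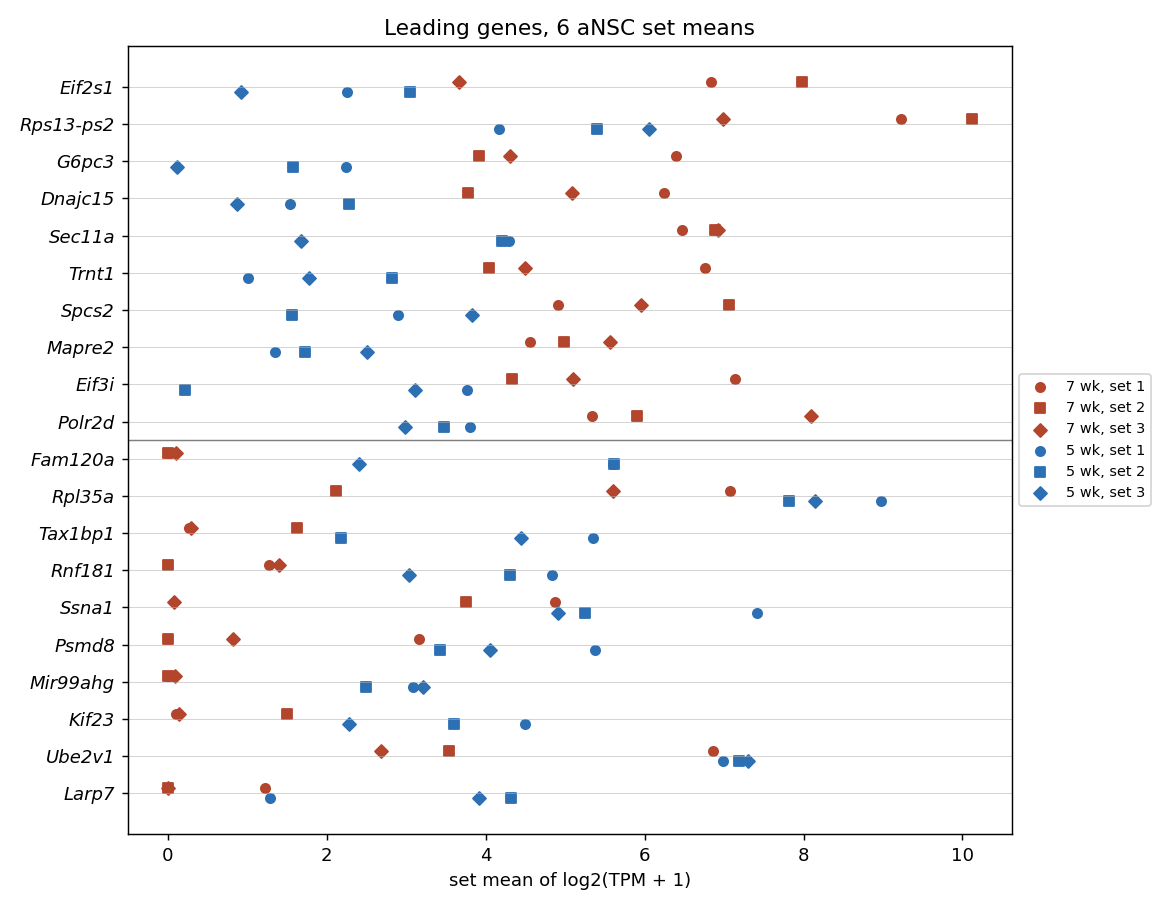
Set means of log2(TPM + 1) (x axis) of the 20 leading genes (y axis, the upper 10 higher and the lower 10 lower at 7 weeks), with 7-week sets in red, 5-week sets in blue and a marker shape per set number. The ages do not overlap for any of the 20, by which they were chosen, and the 5-week and 7-week points of Ssna1, Larp7 and Ube2v1 come closest.

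Among genes lower at 7 weeks, the largest difference was that of Fam120a (ENSMUSG00000038014), which encodes an RNA-binding scaffold protein. Its set means were 0.00, 0.00 and 0.10 at 7 weeks and 5.60, 5.61 and 2.40 at 5 weeks. No 7-week cell reached 1 TPM (0 of 16, which allows a share of up to 18.8%; the highest value was 0.23 TPM). At 5 weeks 20 of 32 cells had it (62.5%, 43.7 to 78.9), with a median of 166 TPM among them, in all 3 sets (6 of 8, 10 of 13 and 4 of 11 cells). The difference was −4.51 (SE 0.96, unadjusted p = 0.0011, limma adjusted p = 0.998), the smallest p of all tested genes. On the log2 of the mean TPM its adjusted p was 0.0599, and over 1381 combinations of named gene and alternative setting the smallest adjusted p was 0.0509. Mir99ahg, a long non-coding host gene of microRNAs, was likewise seen in 0 of 16 and 14 of 32 cells, with set means of 0.00, 0.00 and 0.09 against 3.09, 2.49 and 3.21.

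The other genes of this direction had differences from −3.38 to −2.77. Rnf181, a ubiquitin ligase, had set means of 1.27, 0.00 and 1.40 at 7 weeks and 4.83, 4.30 and 3.03 at 5 weeks, and it was seen in 2 of 16 and 19 of 32 cells. Ube2v1, a ubiquitin-conjugating enzyme variant, had 6.86, 3.54 and 2.68 against 6.99, 7.19 and 7.30. Psmd8, a regulatory subunit of the proteasome, had 3.16, 0.00 and 0.82 against 5.38, 3.43 and 4.05. Set 1 of 7 weeks lay close to the 5-week sets in the last 2 of these. Tax1bp1, an autophagy receptor, had 0.26, 1.63 and 0.29 against 5.35, 2.18 and 4.45. Larp7, which binds the 7SK RNA, had 1.22, 0.00 and 0.00 against 1.28, 4.32 and 3.91, so its sets numbered 1 differed by less than 0.1. Rpl35a, a ribosomal protein, had 7.07, 2.12 and 5.60 against 8.98, 7.82 and 8.15, and Ssna1, a centrosomal microtubule protein, had 4.87, 3.75 and 0.08 against 7.42, 5.25 and 4.91. Reads of Rpl35a may be shared with processed copies of the gene. Kif23, the last of the 10, belongs with the mitotic genes below.

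Genes of G2 and mitosis were the list with the most members on one side. Of 55 members 53 were tested, 0 passed, 6 were separated and lower (11.3%, against 4.66% of all tested genes) and 0 were separated and higher. In all 45 of the 53 lay below 0, with a median difference of −0.65 against 0.005 over all tested genes. Mki67, the nuclear protein that coats mitotic chromosomes, had set means of 2.02, 1.25 and 0.08 at 7 weeks and 3.15, 3.39 and 2.53 at 5 weeks. Its highest 7-week set was below its lowest 5-week set, with a difference of −1.91 (SE 0.77, unadjusted p = 0.0348, limma adjusted p = 0.998). Over all cells Mki67 was seen in 4 of 16 (25%, 7.27 to 52.4) and 17 of 32 (53.1%, 34.7 to 70.9). By set, it was seen in 3 of 7, 1 of 5 and 0 of 4 cells at 7 weeks and in 5 of 8, 8 of 13 and 4 of 11 at 5 weeks, and the mean of the set shares was 21% and 53.5%. Kif23, the motor that bundles the central spindle in cytokinesis, had 0.10, 1.5 and 0.14 against 4.50, 3.60 and 2.28. Racgap1, its partner in the centralspindlin complex, had 2.76, 3.56 and 1.44 against 4.93, 4.88 and 5.77. The spindle protein Ckap2 had 2.25, 2.05 and 1.57 against 3.41, 4.62 and 3.84. The 2 others were Kif2c, a microtubule depolymerase at the centromere (difference −1.55), and Cks2, a partner of Cdk1 (−1.08).

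Other mitotic genes overlapped between ages. Top2a, the topoisomerase that untangles chromosomes, had set means of 4.37, 6.22 and 3.08 at 7 weeks and 6.27, 6.96 and 4.53 at 5 weeks. The mitotic kinase Cdk1 had 4.28, 3.67 and 0.29 against 3.89, 5.07 and 2.83, and cyclin B1 (Ccnb1) had 2.0, 6.37 and 0.20 against 3.23, 4.55 and 4.58. In these genes set 2 of 7 weeks reached or passed some 5-week sets. The mean level of the whole list per set was 3.34, 3.02 and 1.47 at 7 weeks and 3.43, 3.91 and 2.68 at 5 weeks. These list means overlapped. Between sets of the same number they differed by −0.09, −0.90 and −1.21. Cells within a set ranged far more, from 0.41 to 7.98 in set 1 of 7 weeks and from 0.19 to 8.03 in set 3 of 5 weeks. When set 3 was left out at both ages, the list's median difference was −0.37, against −0.04 over all genes, and 15 of 53 members (28.3%) were separated and lower, against 17.2% of all genes. At an unadjusted p below 0.05 there were then 2 of 53 members, against 191 of 4573 genes, and 5 of 53 with all sets.

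Genes of S phase did not share that direction. Of 46 members 39 were tested, 0 passed, 1 was separated and higher (2.56%, against 4.75% of all tested genes) and 0 were separated and lower. In the list 21 lay above and 18 below 0, with a median of 0.02. The separated gene was Prim1, the catalytic subunit of primase, with set means of 6.20, 5.74 and 4.92 at 7 weeks and 2.27, 3.77 and 2.18 at 5 weeks (difference 2.88, SE 0.78, limma adjusted p = 0.998). Pcna, the sliding clamp of DNA replication, had 7.71, 8.67 and 5.88 against 8.92, 8.68 and 4.70, and Rrm2, a subunit of ribonucleotide reductase, had 9.58, 8.03 and 3.18 against 6.75, 9.46 and 4.53. Both were lowest in set 3 at either age. The list mean per set was 4.27, 2.79 and 2.26 at 7 weeks and 3.24, 3.63 and 2.08 at 5 weeks. The G1 kinase Cdk4 had 10.84, 10.73 and 9.82 against 9.46, 11.07 and 8.83, so most cells of both ages carried a high level.

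**Figure D4:**
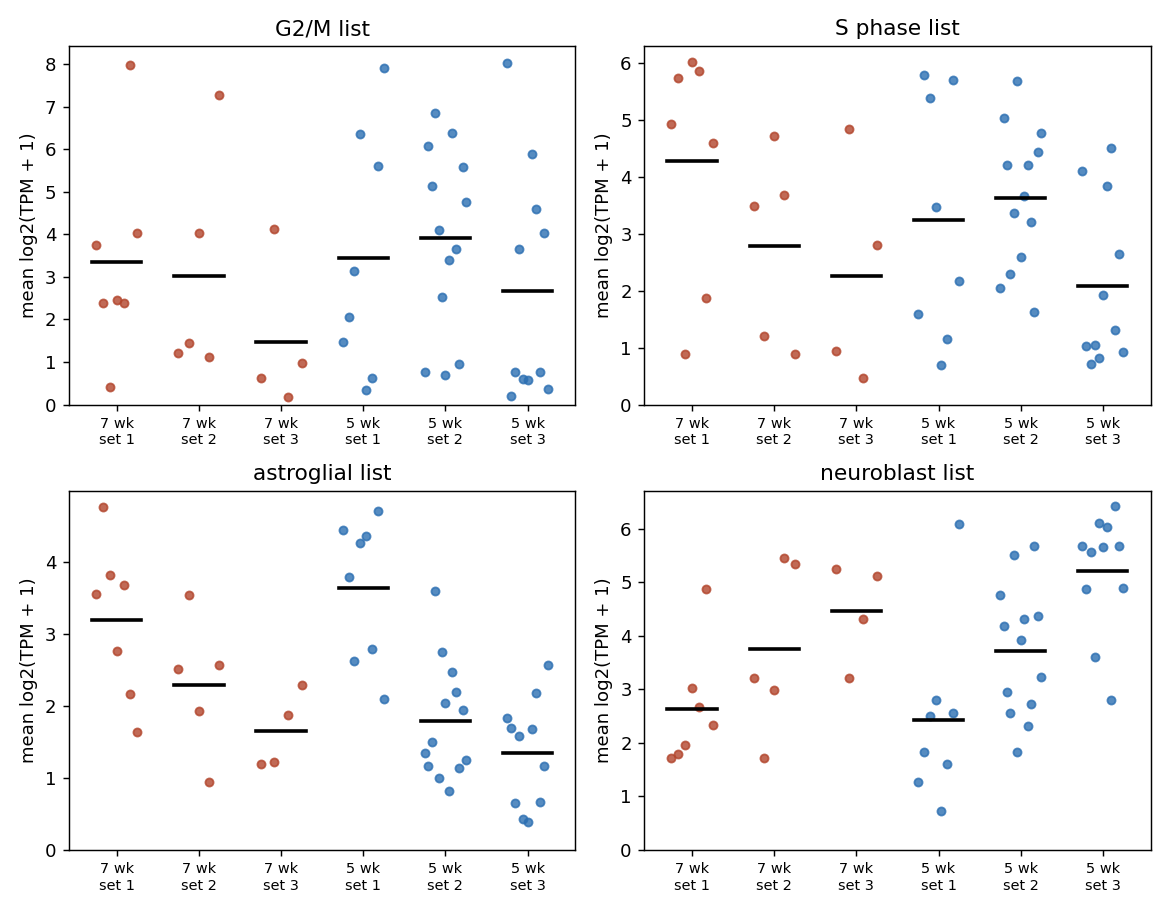
Mean log2(TPM + 1) over the members of 4 gene lists (y axis) in each aNSC cell, by set (x axis), with 7-week cells in red, 5-week cells in blue and a black line at each set mean. G2/M means run from 1.47 to 3.34 in the 7-week sets and from 2.68 to 3.91 in the 5-week sets, while the astroglial list is highest in set 1 and the neuroblast list highest in set 3 at both ages.

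The genes of protein synthesis lay in no common direction. Of 41 translation factors tested, 0 passed, 3 were separated and higher (7.32%) and 4 separated and lower (9.76%). The shares over all tested genes were 4.75% and 4.66%, and the list's median was 0.26. Beside Eif2s1 and Eif3i, the eIF3 subunit Eif3b was higher (difference 1.39). On the other side stood Eif2s3x, the gamma subunit of the same factor as Eif2s1, with set means of 2.26, 1.83 and 2.68 against 4.39, 5.41 and 3.58, so 2 subunits of 1 complex lay in opposite directions. Reads of Eif2s3x may be shared with its Y-linked copy. Eif6, which holds ribosomal subunits apart, was seen in 0 of 16 and 8 of 32 cells, and Eif2b2 and Eif4g1 differed by −1.78 and −0.79. Of 76 ribosomal protein genes tested, 0 passed, 5 were separated and higher (6.58%, against 4.75%) and 3 separated and lower (3.95%, against 4.66%). The median was 0.15. Rpl36a had 8.59, 7.26 and 7.93 against 5.87, 7.10 and 6.27, and Rps3a1 had 9.21, 8.54 and 8.82 against 10.69, 10.20 and 9.65. Of 20 ribosome biogenesis genes tested, 1 was separated and lower (5.0%, against 4.66%). It was Pes1, needed to mature the large subunit (0.02, 1.51 and 0.00 against 2.63, 2.73 and 4.18).

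For entry into the endoplasmic reticulum, 27 of 31 members were tested, 0 passed, and 3 were separated and higher (11.1%, against 4.75% of all tested genes) with 0 lower and a median of 0.25. The third beside Sec11a and Spcs2 was Sec61g, a subunit of the translocation channel, with set means of 3.80, 4.01 and 6.25 at 7 weeks and 2.44, 3.17 and 3.36 at 5 weeks. The list mean per set, 3.60, 3.32 and 2.76 against 3.32, 3.22 and 2.55, overlapped. Chaperones of that compartment had a median of −0.38 over 12 tested. Hspa5, the main Hsp70 of the endoplasmic reticulum, had 7.38, 6.87 and 9.96 against 3.86, 6.46 and 5.56, and Herpud1, of the degradation pathway there, had 5.07, 4.08 and 4.86 against 6.46, 5.51 and 5.74. Neither passed (limma adjusted p = 0.998 for both), and the 95% interval was 0.43 to 5.12 for Hspa5 and −2.83 to 0.37 for Herpud1. Of the cytosolic chaperones, Hspa8 was separated and higher by 0.72 and Hsp90aa1 separated and lower by −1.57, and both were seen in over 9 in 10 cells of each age.

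Of 30 proteasome genes tested, 0 passed, 3 were separated and lower (10.0%, against 4.66% of all tested genes) and 0 higher. Yet 18 lay above 0 and the median was 0.28. The members that were separated were Psma1, of the core particle (set means 3.10, 3.70 and 0.73 against 5.86, 5.09 and 4.17), Psmd6 and Psmd8. Of 77 genes of oxidative phosphorylation tested, 0 passed, 6 were separated and higher (7.79%) and 3 separated and lower (3.90%). The shares over all tested genes were 4.75% and 4.66%, and the list's median was 0.25. Atp5o, of the ATP synthase, had 10.48, 10.44 and 7.78 against 6.06, 7.40 and 7.62, and Sdhc, of complex II, had 3.95, 2.66 and 2.76 against 0.24, 0.95 and 1.99. Uqcrc2 and Ndufa8, of complexes III and I, were separated the other way, by −2.10 and −2.13. Sets of 7 weeks also had the higher mitochondrial share given above. Beyond the rescaling named there, its part in these values was not tested. Of 42 splicing factors tested only Srsf11 was separated and higher (2.38%, against 4.75%), with a difference of 2.08.

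Glycolysis genes had the largest median of any list with at least 5 genes tested, 1.53 over 9 of 16 members. Of these 7 lay above 0, but 0 passed and 0 were separated, against 4.75% higher and 4.66% lower over all tested genes. Eno1, the ubiquitous enolase, had set means of 8.08, 4.18 and 9.17 at 7 weeks and 3.07, 5.09 and 3.14 at 5 weeks (difference 3.38, SE 1.27, unadjusted p = 0.0261, limma adjusted p = 0.998). Ldhb, a lactate dehydrogenase, had 10.86, 9.57 and 5.84 against 9.11, 6.66 and 5.10. Sets overlapped in each. The list's median was 0.40 with no filter, 0.69 with a filter at a mean of 3, and 0.59 on the log2 of the mean TPM. Of 15 genes of lipid and cholesterol synthesis tested, Elovl5, a fatty acid elongase (difference 2.24), and Msmo1, a sterol oxidase (1.89), were separated and higher. These were 13.3% of the list, against 4.75% of all tested genes, and the list's median was 0.44.

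Lists that describe the stage of the cells showed no separated gene or 1, which with few genes tested is near the shares over all genes. Markers such as Slc1a3 and Dcx ran in a steep order of set number at both ages, so overlap between ages says little about age there. Of 25 astroglial genes tested 0 were separated in either direction (against 4.75% higher and 4.66% lower of all tested genes), with a median of 0.21. The largest difference was 3.35 for Dbi, an acyl-CoA binding protein (10.90, 10.04 and 7.68 against 10.13, 5.69 and 2.73). Of 13 activation and progenitor genes 0 were separated (against the same shares), with a median of 0.07. Set means of the list were 2.31, 2.45 and 2.29 against 2.07, 2.73 and 2.37. Of 27 neuroblast genes Dpysl5 was the only separated member and lower (3.7%, against 4.66% of all tested genes), with a median of −0.13. Sox2, a transcription factor of neural stem cells, had 1.92, 5.02 and 1.86 against 1.73, 1.36 and 0.96, which is separated and higher by 1.58 (SE 0.96, limma adjusted p = 0.998). Egfr had 2.55, 1.96 and 1.83 against 2.87, 0.70 and 0.55, so the highest Egfr set was one of 5 weeks. Stmn1, which destabilizes microtubules in progenitors and neuroblasts, was above 1 TPM in 16 of 16 and 32 of 32 cells, and it differed by 0.01 (−1.83 to 1.86). Notch pathway genes (5 tested, median −0.11), BMP pathway genes (4, 0.65), immediate early genes (4, −0.05) and interferon response genes (2, 0.68) held no separated member. These lists are too short to set beside the shares over all genes.

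Quiescent cells of the same sets, labelled qNSC, gave the comparison needed to call a difference particular to aNSC. There were 23 such cells at 7 weeks and 17 at 5 weeks, of which 1 pair of near-identical libraries was averaged. Of 4089 genes tested for an interaction of age and stage, 0 passed (0.0%), with 209 at an unadjusted p below 0.05 (5.11%) and a smallest adjusted p of 0.524. In qNSC 3147 of the 4573 genes (68.8%) lay below 0, with a median difference of −0.41, and so did 8 of the 10 leading genes higher in 7-week aNSC and 8 of the 10 lower ones. Spcs2 differed by 3.21 in aNSC and −3.63 in qNSC (interaction 6.84, SE 1.54, limma adjusted p = 0.524), and Mapre2 by 3.17 and −3.16 (interaction 6.33, SE 1.58, adjusted p = 0.534). Without set 2 of 5 weeks the interaction of Mapre2 had an adjusted p of 0.0448, the only call in that fit. Fam120a differed by −4.51 and −0.79 (interaction −3.72, SE 1.46, adjusted p = 0.849). No leading gene was thus shown to differ between the stages in its response to age.

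The bulk pools that share title sets with the cells gave another view of the 20 leading genes. Here sets 2 and 3 of 7 weeks stand against sets 1, 2 and 3 of 5 weeks, so set 1 is in 1 arm only, and values from sets 2 and 3 alone are given as well. The 10 genes higher in 7-week aNSC differed by −0.65 to 0.64 in the pools, with 7 below 0, and by −0.72 to 0.75 over sets 2 and 3, with 5 below 0. The 10 lower genes differed by −1.34 to 0.33, with 6 below 0, and by −1.37 to 0.35 over sets 2 and 3, with 6 below 0. Fam120a, absent from the 7-week cells at 1 TPM, was at 5.01 and 5.19 in the 7-week pools and at 5.93, 5.59 and 5.59 in the 5-week pools. Eif2s1 was at 6.51 and 6.49 and at 6.85, 7.02 and 6.66. In the pools these genes were therefore within about 1 unit of each other at the 2 ages, except Mir99ahg, at 4.16 and 5.40 against 6.05, 5.79 and 6.52. The labels give the pools no stage, so they do not test the aNSC values. For Mki67 the pools gave 7.22 and 5.91 against 7.14, 7.05 and 6.59, and the mean of the G2/M list was 7.35 and 6.21 in sets 2 and 3 of 7 weeks and 7.83, 7.65 and 6.67 in sets 1, 2 and 3 of 5 weeks. Within a set number the 7-week pool had the lower G2/M mean in both pairs, each with 1 pool at 7 weeks. This was not particular to G2/M. The S phase list was also lower in both pairs (6.57 and 5.78 against 6.81 and 6.18). So were the lists of splicing factors and of entry into the endoplasmic reticulum, while those of the proteasome and oxidative phosphorylation were higher.

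**Figure D5:**
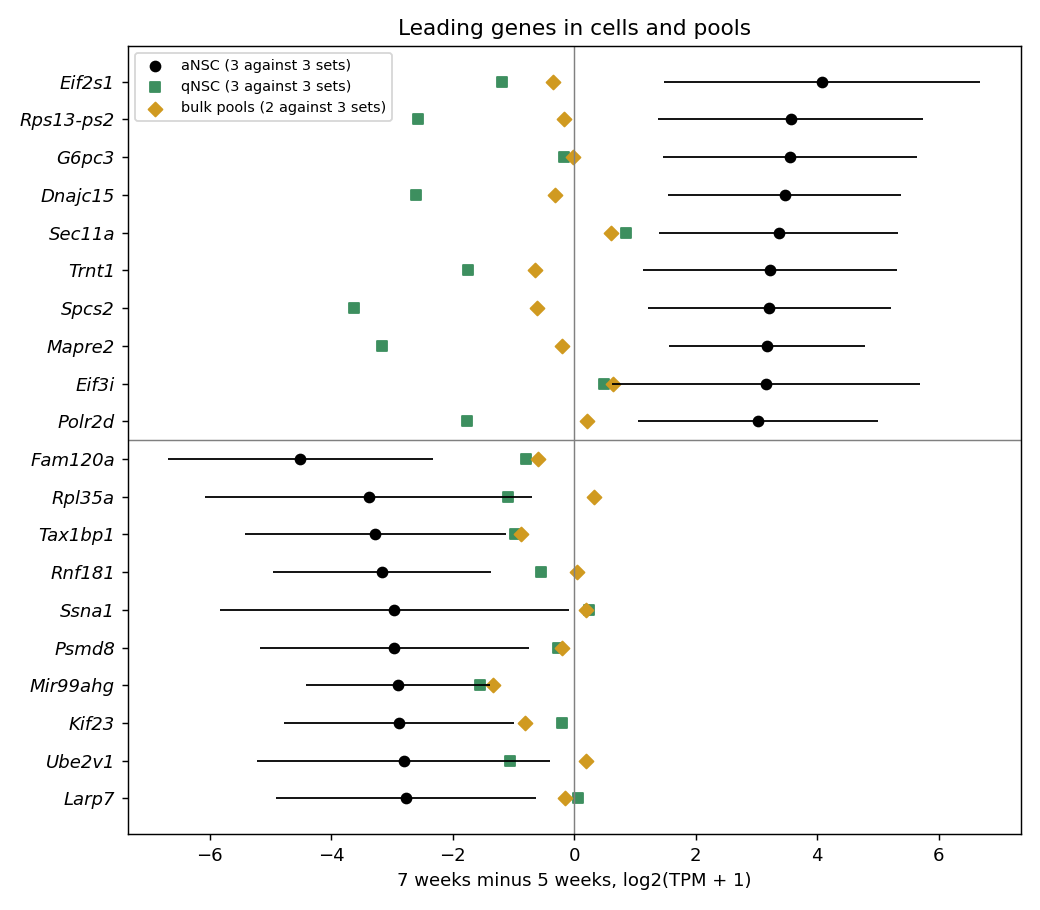
Difference between ages (7 weeks minus 5 weeks, log2(TPM + 1), x axis) of the 20 leading genes (y axis) in aNSC (black, with unadjusted 95% intervals), qNSC (green) and bulk pools (yellow, sets 2 and 3 of 7 weeks against sets 1, 2 and 3 of 5 weeks). Pool differences run from −1.34 to 0.64 and those of aNSC from 3.03 to 4.08 in the upper 10 and from −4.51 to −2.77 in the lower 10. The genes were chosen for the size of their aNSC differences, so smaller values in the pools are no test.

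Markers of other cell types were at 0 in most cells of both ages. No gene of the lists for motile cilia and ependymal cells (26 genes), oligodendrocytes (15), their precursors (9), microglia (15), endothelial and mural cells (20), erythroid cells (8) or choroid plexus (12) reached the level needed for testing. Of the mature neuron list 2 of 15 were tested and 0 were separated. Its synaptic gene Snap25 was seen in 4 of 16 cells at 7 weeks and 8 of 32 at 5 weeks. Foxj1, Mog and Syt1 were seen in 1 of 16 and 0 of 32 cells each, Mbp in 1 and 1, Hba-a1 in 0 and 1, and Pdgfra, Sox10, C1qa, Cx3cr1, Csf1r, Cldn5, Pecam1, Rbfox3 and Folr1 in 0 of either. Ttr, a thyroid hormone carrier made in the choroid plexus, was seen in 2 of 16 cells at 7 weeks, at up to 440.0 TPM, and in 0 of 32 at 5 weeks, which allows a share of up to 9.38%. The choroid plexus list had a summed level of up to 618 TPM in a 7-week cell and up to 150 TPM in a 5-week cell, with 3 and 1 of its 12 members seen in any cell. Its part in the differences above was not tested.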

How the data were processed

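RNA of sorted single cells and pools of 500 cells was amplified and sequenced per the labels' protocols, and the authors deposited 1 table of TPM values (37621 rows), made with RSEM 1.2.15 on mm9 per the submitters' processing notes. The deposited TPM do not hold read counts, so no depth can be given and no count model was used. IDs were matched to symbols for 32898 rows, with the gfp row. No coordinates are given.

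Title-set means of log2(TPM + 1) (pseudocount 1) of the aNSC cells were compared between ages with limma 3.58.1 in R 4.3.3, 3 sets against 3, two-sided, on genes with a mean of at least 1, with Benjamini-Hochberg adjustment over all of them (threshold 0.05). The interaction with stage used 12 set means. Reported intervals of differences are unadjusted. Shares use 1 TPM as detection level with exact Clopper-Pearson 95% intervals, and a share of 0 is limited by 3 cells of the total. The 28 gene lists, of which 5 members had no row, were described and not tested. Members and lists were chosen with earlier results of these data known. Named genes are those past the threshold, filled to 10 per direction with the separated genes of largest difference (predicted gene models left out), a panel, and up to 4 separated members of each list. Single genes of a list outside this rule (such as Eno1, Dbi, Eif3b, Kif2c and Rps13) were named after their values were seen. Libraries with a correlation above 0.95 (1 qNSC pair) were averaged. The fits were checked on simulated data. Alternatives changed the pseudocount, filter, averaging, normalization, weights, covariates, cells and sets used. A variance trend and leaving out set 3 at both ages were added after seeing the data.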

Additional observations from a re-analysis of the deposited data

How the results depend on the processing

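Of 19 alternatives to the comparison of ages, 18 called no gene. With no filter (19358 genes) 1 gene was called, Fam50a, lower at 7 weeks (0.04 against 1.34, limma adjusted p = 0.00255), with 730 genes at an unadjusted p below 0.05. Elsewhere that count ran from 54 to 314. With the TPM rescaled without mitochondrial and ribosomal RNA it was 193 of 4558 genes, against 197 of 4573 in the main fit. Separated genes numbered 438 higher and 1009 lower with no filter, 74 and 49 with a filter at a mean of 3, where fewer genes were tested, and 682 and 787 without set 3 of both ages. Leaving out 1 set at a time, where fewer sets have to part, gave 315 to 531 higher and 338 to 680 lower. The split was 173 higher to 281 lower on the log2 of the mean TPM, against 217 to 213, with a median over all genes of −0.30, and the cause was not tested. The interaction with stage called 8 genes with no filter and 1 without 5-week replicate 2, a fit with a range of 0 to 1 over the sets left out. With set number as a replicate block 0 genes were called, as without it, and 257 had an unadjusted p below 0.05. Deviations of same-numbered sets correlated at 0.18, 0.00 and 0.21 over the tested genes, and those of sets 1 and 3 at −0.21 and −0.18. The sets were not taken as paired in the main fit. For markers with a common order by set number, such as Nr2e1 and Dcx, that order counts as spread there. Title sets as a block gave 0 interaction genes. At 10 TPM the set medians of genes detected differed by −116.3 (exact permutation p = 0.7), and 0 of 12 shares left their interval. Of 74 named genes 21 changed sign in at least 1 alternative, in 87 of 1381 combinations. None of the 20 leading genes did in an alternative that tested it. These were chosen as separated, so leaving out or weighting sets could not change their sign, and this is no test of them. Of 144 list medians under alternatives, 21 moved by over 1 SD between sets. Depth is unknown, and with 3 sets of 4 to 13 cells a difference under about 2 was within the interval of most genes.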
